A study of Mus musculus with 4 samples.

Results

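The genes described here are 45 genes of the unfolded protein response and of the secretory pathway, listed by name as the programme known to work with Blimp-1 in plasma cells, and looked up in regulatory T cells with and without Prdm1, the gene of Blimp-1. A gene was measured where a probe of the platform annotation carried its symbol and no other, and the brightest such probe over all arrays was taken. In this way 43 of the 45 had a value, among 22180 named genes in all. Of these, 41 were found under the listed symbol, and Ero1l and Ero1lb under their current symbols Ero1a and Ero1b. Pdia4 and Srp54a lie on probes that carry several genes and have no value. The mean level of 42 of the 43 lay above 5.91, the median of all genes, which served as the expression limit. Chac1 lay below it at 5.80.

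Arrays were made from CD4 T cells that carry YFP with FoxP3, sorted 7 days after immunization of mice with NP-OVA in CFA (complete Freund's adjuvant). Follicular regulatory T (TFR) cells were PD1+CXCR5+YFP+, and non-TFR cells were CXCR5-YFP+. Each population came from Prdm1fl/flFoxP3YFP-Cre mice (KO) and from FoxP3YFP-Cre mice (WT), so that all 4 groups carry the FoxP3YFP-Cre allele and the KO groups carry floxed Prdm1 in addition. Since Foxp3 drives the Cre, the deletion is directed to Foxp3-expressing cells. Prdm1 in the other cells of these mice was not measured here. The sources used here do not give the ages of the mice or how many stand behind each sample. Each group was 1 Affymetrix Mouse Gene 2.0 ST array, so no difference below has a replicate check or a test. A level is a log2 signal after quantile normalization, and a difference is 1 array minus another on that scale. Counts are of genes at least 1.5-fold apart (0.58 on the log2 scale), and each is set beside the percentage of the 11090 genes above the expression limit (expressed genes) past the same fold. Levels of different genes rest on different probes and are not compared with each other. In sorted bulk cells, fewer cells of a type and less RNA per cell cannot be told apart.

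The unfolded protein response matches the folding capacity of the endoplasmic reticulum (ER) to the load of new secretory and membrane proteins. Its sensors in the ER membrane are IRE1, PERK and ATF6: IRE1 splices the mRNA of Xbp1, PERK slows translation and favours that of Atf4, and ATF6 is cut in the Golgi to release a transcription factor. In plasma cells Blimp-1 and XBP1 are both needed for full antibody secretion. Splicing of Xbp1, phosphorylation of PERK and cleavage of ATF6 are not seen by a gene-level array.

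Prdm1 itself, the gene that the KO allele targets, stood at 7.32 in KO TFR cells and 8.21 in WT TFR cells (difference -0.89), and at 7.59 in KO non-TFR cells and 7.80 in WT non-TFR cells (difference -0.21). How far the probe set lies within the deleted exons is unknown, so this is a limited check of the deletion. Markers of CD4 T cells and of regulatory T cells, 7 in all, were far above the limit on every array. Foxp3, which defines regulatory T cells, was 11.87 in KO TFR and 12.36 in WT TFR cells (1.41-fold lower in KO), and 12.42 in KO non-TFR and 12.45 in WT non-TFR cells. Il2ra, the IL-2 receptor gene that regulatory T cells express highly, was 0.67 lower in KO TFR cells (1.59-fold) than in WT TFR cells (11.67), and 1.23 lower in KO TFR than in KO non-TFR cells, with levels of 12.24 in KO non-TFR and 12.17 in WT non-TFR cells. KO TFR cells were thus the low array for both. Of the plasma cell markers, which would bring secretory genes with them, 3 of 5 lay below the expression limit. Jchain, which encodes the joining chain of secreted antibodies, lay between 3.87 and 4.55, and Tnfrsf17 between 4.57 and 4.88. Sdc1, the plasma cell surface marker syndecan-1, was 6.38 in KO TFR, 6.07 in WT TFR, 5.56 in KO non-TFR and 5.28 in WT non-TFR cells. Derl3, an ER degradation gene of secretory cells, was 6.56, 6.25, 5.97 and 5.25 in the same order, and Mzb1, a plasma cell chaperone gene, 5.96, 6.14, 6.36 and 6.52. Sdc1 and Derl3 were thus higher and Mzb1 lower in TFR cells of both genotypes. The mean over the 5 was 5.53, 5.44, 5.43 and 5.13 in KO TFR, WT TFR, KO non-TFR and WT non-TFR cells. Of 7 measured B cell markers 5 lay below the limit, with the B cell gene Ms4a1 at 3.98 to 4.12, and of 7 myeloid markers 6 did. The mean over the B cell markers was 6.20, 5.98, 5.73 and 5.53 in the same order of groups, and that over the myeloid markers 5.67, 5.51, 5.23 and 5.38. Above the limit were Cd79b, at 8.19 in KO TFR, 8.42 in WT TFR, 8.35 in KO non-TFR and 8.08 in WT non-TFR cells, and Cd22, at 9.27 in KO TFR, 8.27 in WT TFR, 7.04 in KO non-TFR and 5.99 in WT non-TFR cells. Of the myeloid markers Cd68 lay above it, at 9.17, 7.97, 7.59 and 7.47 in the same order. Between the genotypes in TFR cells Cd79b was 0.23 lower and Cd22 1.00 higher in KO cells. Of the B cell markers below the limit by their mean, Blk was 0.83 and Pax5 0.41 higher in KO TFR cells. Both passed the limit on the KO TFR array only, at 6.11 (Blk) and 6.10 (Pax5). Of the 7 B cell markers 3 were higher and 4 lower in KO TFR than in WT TFR cells. The part of such cells in the values below was not tested. Markers of dividing cells differed far more: their mean level over 11 genes was 9.37 in KO TFR, 9.33 in WT TFR, 7.19 in KO non-TFR and 6.08 in WT non-TFR cells.

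The comparison of KO with WT TFR cells asks whether the secretory programme differs with the Prdm1 genotype in the follicular population. It showed no common shift. The median difference of the 43 genes was 0.01, beside 0.02 over expressed genes. In KO TFR cells 24 of the 43 were higher (55.8%, beside 53.8% of expressed genes) and 19 lower. The differences of the 43 ran from -0.48 (Ddit3) to 0.49 (Ero1l). None was at least 1.5-fold higher, against 2.16% of expressed genes, and none at least 1.5-fold lower, against 1.56%. The middle 95% of expressed genes spanned -0.50 to 0.56, so every measured gene of the programme lay inside that range. The median size of a difference, whatever its sign, was 0.11 over the 43 genes, 0.14 over expressed genes and 0.13 over genes above the 75th percentile of level.

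The same comparison in non-TFR cells asked the question outside the follicular gate. The median difference was 0.03, the same as over expressed genes (0.03). In KO cells 23 of the 43 were higher (53.5%, beside 55.7% of expressed genes) and 20 lower. Asns alone was at least 1.5-fold higher (1 of 43, against 3.69% of expressed genes), and none was at least 1.5-fold lower, against 1.09%. The differences ran from -0.56 (Trib3) to 0.61 (Asns), and both of these are genes of the ATF4 branch.

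**Figure D1:**
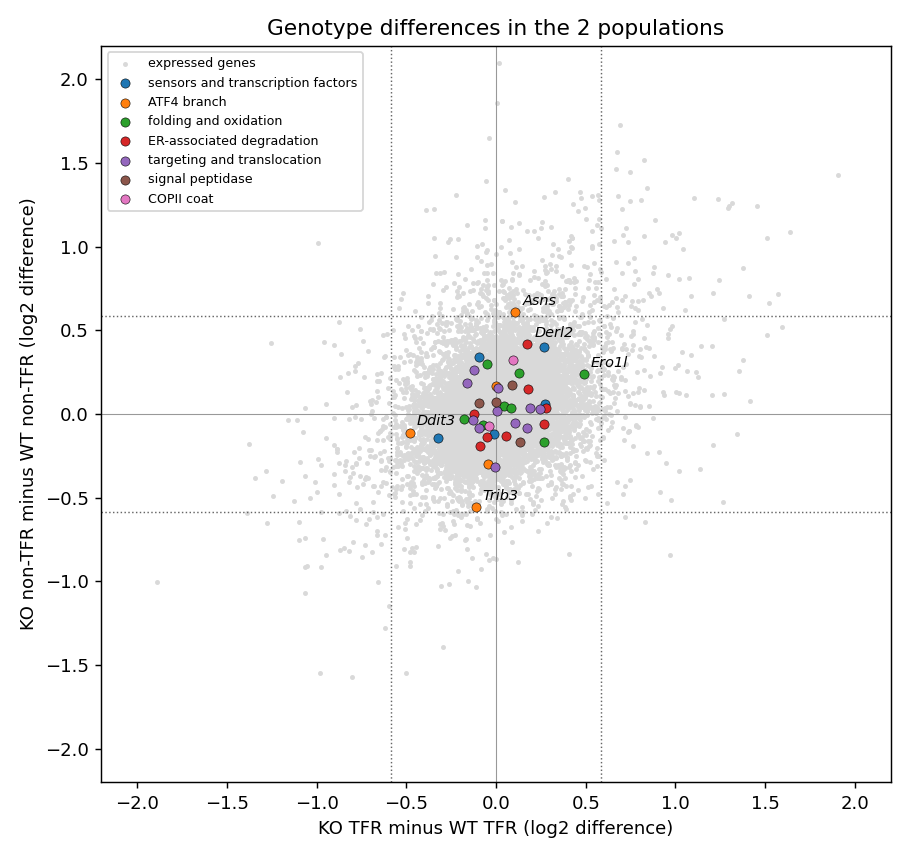
Each coloured point is 1 of the 43 measured genes, by role, with its KO minus WT log2 difference in TFR cells (x axis) and in non-TFR cells (y axis); grey points are expressed genes, of which 6 lie beyond the axes, and dotted lines mark 1.5-fold. The genes of the programme sit near the centre, and only Asns crosses a dotted line, at 0.61 in non-TFR cells.

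Between the populations, the comparison of WT TFR with WT non-TFR cells had a median of -0.02 over the 43 genes, beside 0.02 over expressed genes. In WT TFR cells 21 were higher (48.8%, beside 52.4% of expressed genes) and 22 lower. Asns (1.09), Creb3l2 (0.94) and Sdf2l1 (0.64) were at least 1.5-fold higher (3 of 43, against 10.3% of expressed genes). Ero1lb (-0.61) was at least 1.5-fold lower (1 of 43, against 5.76%). In KO mice the TFR over non-TFR median was 0.10, beside 0.01 over expressed genes. There 25 of the 43 were higher (58.1%, beside 51.6% of expressed genes) and 18 lower. Asns (0.59) was again at least 1.5-fold higher (1 of 43, against 8.54%), and none was at least 1.5-fold lower (against 6.2%). In none of the 4 comparisons, therefore, was the share of the programme past 1.5-fold in either direction above that of expressed genes.

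The scale bears on the population comparisons. As deposited, expressed genes were on the median 0.13 higher in WT TFR than in WT non-TFR cells and 0.14 higher in KO TFR than in KO non-TFR cells, a shift that quantile normalization takes out. On the deposited scale the medians of the 43 genes were 0.11 in WT and 0.21 in KO mice. The split was then 29 higher and 14 lower in WT TFR cells, beside 64.5% of expressed genes higher, and 30 higher and 13 lower in KO TFR cells, beside 65.5%. Atf6, Pdia6 and Sec11c joined the genes at least 1.5-fold higher in WT TFR cells on that scale (6 of 43, against 13.6% of expressed genes), and none was 1.5-fold lower (against 3.87%). In KO mice Asns and Creb3l2 were at least 1.5-fold higher in TFR cells (2 of 43, against 12.7%) and none lower (against 3.77%). Between KO and WT non-TFR cells none was 1.5-fold higher on the deposited scale (against 3.36%) or lower (against 1.19%).

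**Figure D2:**
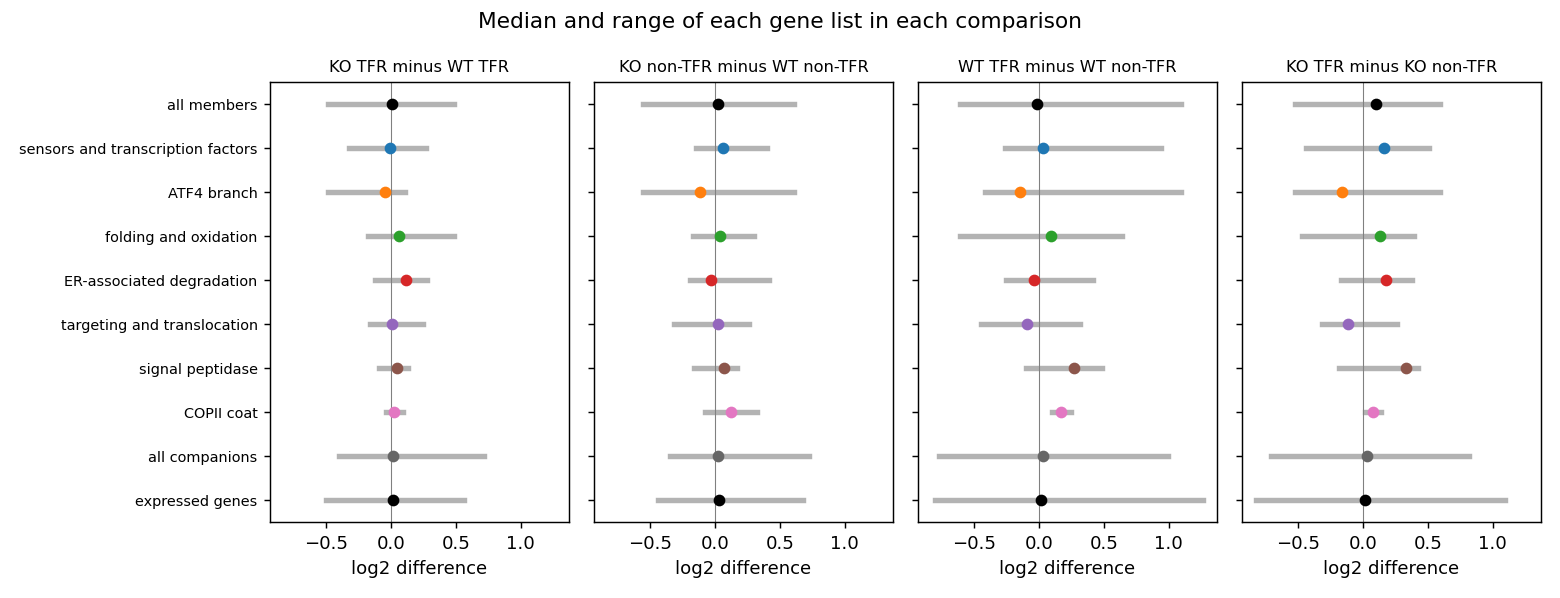
Points give the median log2 difference of each role, of all 43 genes and of the 83 other pathway and plasma cell genes (all companions) in each of the 4 comparisons, and bars the lowest and highest gene. For expressed genes the bar is the middle 95%. The medians of the whole programme stay between -0.02 and 0.10.

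The sensors and their transcription factors differed in unlike ways. Xbp1, the transcription factor made from the mRNA that IRE1 splices, had levels of 9.90 in KO TFR, 9.91 in WT TFR, 9.76 in KO non-TFR and 9.88 in WT non-TFR cells. The 4 arrays lay close together, and the KO minus WT difference was -0.01 in TFR and -0.12 in non-TFR cells. Ern1, which encodes IRE1, was 7.94 in KO TFR and 7.67 in WT TFR cells (difference 0.27), and 7.78 in KO non-TFR and 7.72 in WT non-TFR cells (0.06). Eif2ak3, which encodes PERK, was 7.38 in KO TFR, 7.70 in WT TFR, 7.81 in KO non-TFR and 7.96 in WT non-TFR cells. It was thus lower in KO than in WT cells of both populations (-0.32 and -0.14) and lower in the TFR population of both genotypes (-0.26 in WT, -0.44 in KO).

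Atf6 ran the other way, at 10.19 in KO TFR, 9.92 in WT TFR, 9.76 in KO non-TFR and 9.36 in WT non-TFR cells. It was higher in KO than in WT cells by 0.27 in TFR and by 0.40 in non-TFR cells, and higher in the TFR population by 0.55 in WT and 0.42 in KO mice. Creb3l2 encodes a membrane-bound transcription factor of the ER that is released by the same proteases as ATF6 and is known for driving COPII genes. Its level was 9.19 in KO TFR, 9.28 in WT TFR, 8.68 in KO non-TFR and 8.34 in WT non-TFR cells, so that both TFR arrays lay above both non-TFR arrays. The TFR over non-TFR difference of Creb3l2 was 0.94 in WT (1.93-fold) and 0.51 in KO mice (1.42-fold).

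The genes of the ATF4 branch differed in both directions, and Asns had the highest difference of the 43 genes in 3 of the 4 comparisons. Atf4, whose product turns on amino acid synthesis and redox genes under stress, had levels of 11.24 in KO TFR, 11.28 in WT TFR, 11.40 in KO non-TFR and 11.69 in WT non-TFR cells. Ddit3, which encodes the stress factor CHOP, was 8.65 in KO TFR, 9.13 in WT TFR, 9.17 in KO non-TFR and 9.28 in WT non-TFR cells. The KO TFR array stood lowest for both genes. For Ddit3 the KO minus WT difference in TFR cells was -0.48 (1.40-fold lower), the lowest of the 43 there.

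Asns encodes asparagine synthetase, a target of ATF4. It had levels of 7.37 in KO TFR, 7.26 in WT TFR, 6.78 in KO non-TFR and 6.17 in WT non-TFR cells, the last close to the expression limit of 5.91. WT non-TFR cells were the low array: KO non-TFR cells lay 0.61 above them (1.53-fold) and WT TFR cells 1.09 above them (2.13-fold), whereas KO and WT TFR cells differed by 0.11. Trib3, a pseudokinase induced by ATF4 and CHOP, had the opposite order among non-TFR cells, at 5.91 in KO and 6.46 in WT cells, beside 5.93 in KO TFR and 6.05 in WT TFR cells. Its KO non-TFR level lay just below the expression limit, so no fold is given for the difference of -0.56. Chac1, which encodes a glutathione-degrading enzyme, lay between 5.71 and 5.98 on all arrays and could not be compared. Asns and Trib3, both known targets of ATF4, were therefore the highest and the lowest of the 43 genes in KO against WT non-TFR cells.

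**Figure D3:**
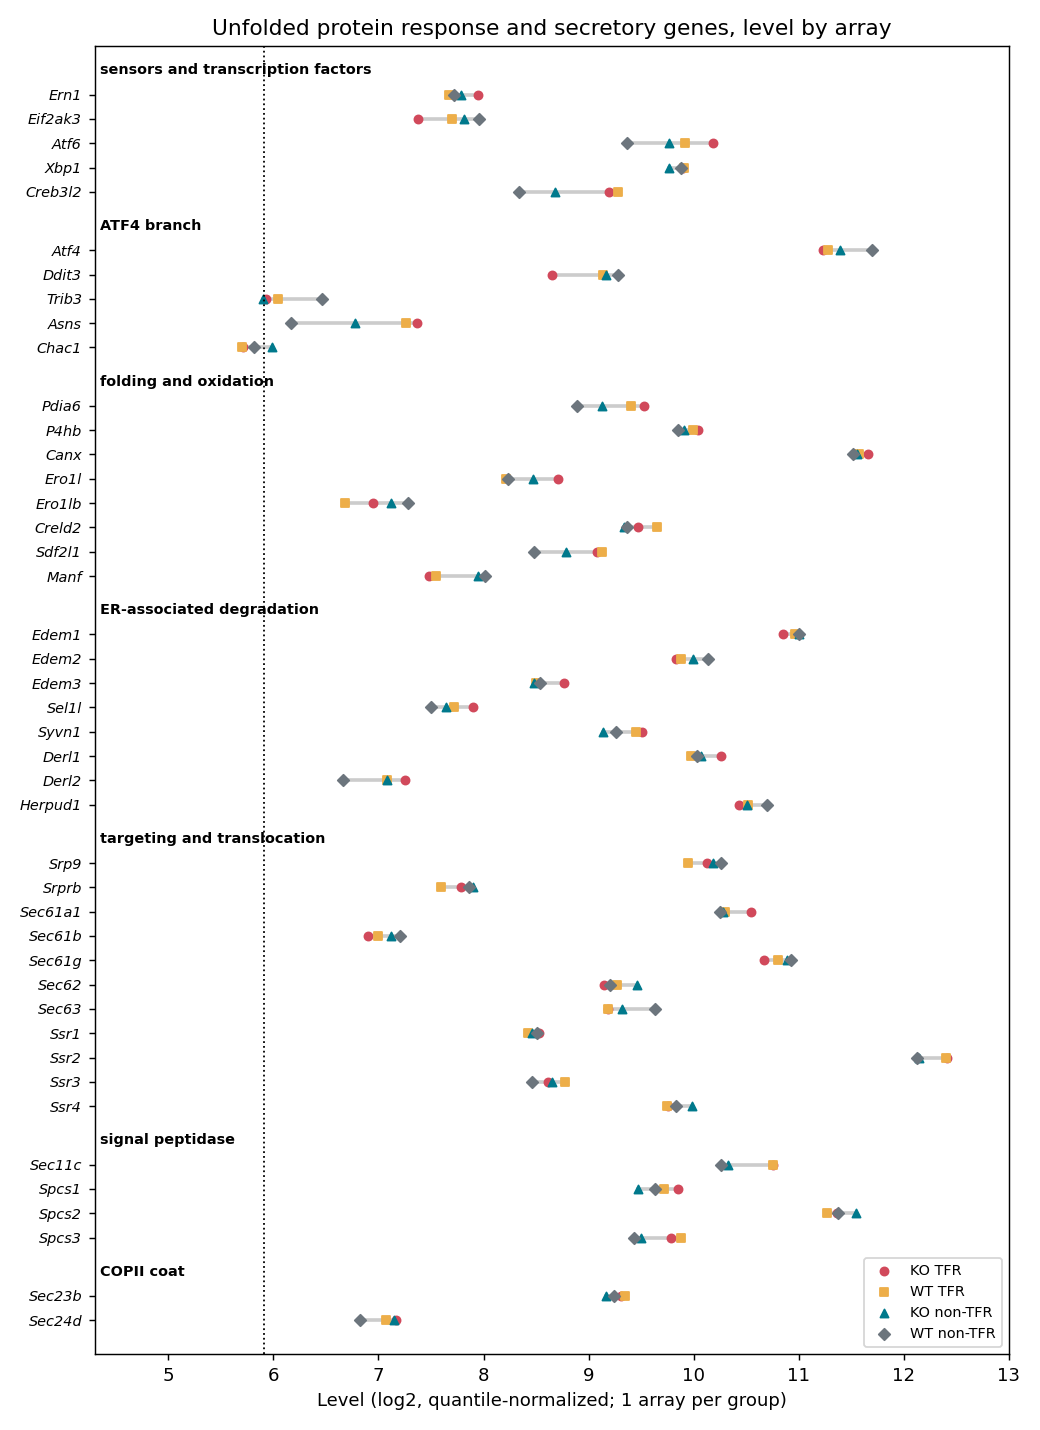
Levels (log2, x axis) of the 43 measured genes by role, with 1 symbol per array; the grey bar spans the 4 arrays of a gene and the dotted line is the expression limit of 5.91. Xbp1, Canx and Ssr1 show short bars, and Asns and Creb3l2 the long ones, with both TFR arrays to the right.

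The ER stress response element (ERSE) is the sequence through which ATF6 and XBP1 act on many chaperone genes: CCAAT and CCACG, 9 bases apart. It was searched on both strands in the 250 bases before the start of each gene in RefSeq (GRCm38.p6), where 38 of the 45 genes had a promoter. It was found in 5 of the 38 genes, beside 35 of all 27025 genes with a promoter (0.13%). By promoter it was found in 37 of all 32851 (0.113%). The windows below show these genes because they carry the same element and can be set beside their own differences. Capitals mark the CCAAT and CCACG of the element, which read CGTGG and ATTGG where the element lies on the other strand.
Pdia6, chr12:17266471-17266529, plus strand: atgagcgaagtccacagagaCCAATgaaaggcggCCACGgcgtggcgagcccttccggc
Canx, chr11:50325780-50325838, minus strand: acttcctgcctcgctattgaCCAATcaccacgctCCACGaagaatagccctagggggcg
Creld2, chr15:88819500-88819558, plus strand: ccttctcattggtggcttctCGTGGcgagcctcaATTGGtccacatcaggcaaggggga
Ero1b, chr13:12565662-12565720, plus strand: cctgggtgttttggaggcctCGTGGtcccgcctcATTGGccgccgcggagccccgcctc
Syvn1, chr19:6046512-6046570, plus strand: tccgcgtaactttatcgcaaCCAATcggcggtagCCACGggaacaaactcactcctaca

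The genes that share this element did not share a direction. In WT TFR against WT non-TFR cells Pdia6 was 0.51 higher, Creld2 0.28, Syvn1 0.19 and Canx 0.06 higher, whereas Ero1lb (Ero1b in RefSeq) was 0.61 lower. Between the genotypes in TFR cells their differences ran from -0.18 (Creld2) to 0.27 (Ero1lb). Herpud1 holds the shorter element ERSE-II (ATTGG and CCACG, 1 base apart), which was found in 10 of the 32851 promoters (0.0304%) and in no other promoter of the listed genes. Its level was 10.43 in KO TFR, 10.52 in WT TFR, 10.51 in KO non-TFR and 10.70 in WT non-TFR cells.
Herpud1, chr8:94386357-94386407, plus strand: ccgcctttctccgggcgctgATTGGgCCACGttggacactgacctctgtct

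For the ATF4 branch, the element known to bind ATF4 with C/EBP factors was searched as TGATG, any base, then AA, again on both strands. It occurs by these letters in 3.45% of all promoters and in 3.91% of all genes with a promoter. Among the 38 listed genes with a promoter it occurs in 3: Asns, Chac1 and Herpud1. The windows of the first and second are shown because both are ATF4 targets, of which Asns varied among the arrays and Chac1 lay near the expression limit on all of them. A match is a description of the letters, and nothing is said by it about binding in these cells.
Asns, chr6:7693210-7693252, minus strand: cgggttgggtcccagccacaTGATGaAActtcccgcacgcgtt
Chac1, chr2:119351029-119351076, plus strand: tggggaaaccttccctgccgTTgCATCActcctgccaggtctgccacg

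Folding and oxidation genes had a median KO minus WT difference of 0.07 in TFR and 0.04 in non-TFR cells over 8 measured members. Ero1l, the oxidase that recharges protein disulfide isomerases, was 8.71 in KO TFR and 8.22 in WT TFR cells (0.49 higher, 1.40-fold), and 8.47 in KO non-TFR and 8.23 in WT non-TFR cells (0.24 higher). It had the highest genotype difference of the programme in TFR cells. A second, dimmer probe of Ero1l gave 0.35 in TFR and -0.30 in non-TFR cells, so the probes differ in sign outside the follicular gate. Its paralogue Ero1lb was 6.94 in KO TFR and 6.68 in WT TFR cells, against 7.12 in KO non-TFR and 7.28 in WT non-TFR cells. Both TFR arrays were below both non-TFR arrays for Ero1lb, by 0.61 in WT (1.52-fold) and 0.17 in KO mice.

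Sdf2l1, a component of the ER chaperone network and a classical target of the response, was 9.08 in KO TFR, 9.13 in WT TFR, 8.79 in KO non-TFR and 8.48 in WT non-TFR cells. Pdia6, a protein disulfide isomerase, was 9.53 in KO TFR, 9.40 in WT TFR, 9.13 in KO non-TFR and 8.89 in WT non-TFR cells. For both, TFR cells of each genotype lay above non-TFR cells, by 0.64 (Sdf2l1) and 0.51 (Pdia6) in WT and by 0.29 and 0.40 in KO mice. Manf, which encodes a secreted protein induced by ER stress, had the reverse order, at 7.48 in KO TFR and 7.55 in WT TFR cells, against 7.94 in KO non-TFR and 8.01 in WT non-TFR cells. It was 0.46 lower in TFR cells of WT mice and 0.47 lower in those of KO mice, and differed by -0.07 between the genotypes in each population. P4hb, the main protein disulfide isomerase, spanned 9.85 to 10.04 over the 4 arrays, and the lectin chaperone gene Canx 11.52 to 11.66. Creld2, another secreted target of the response, was 9.47 in KO TFR, 9.65 in WT TFR, 9.34 in KO non-TFR and 9.37 in WT non-TFR cells.

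Genes of ER-associated degradation, which returns misfolded proteins to the cytosol for the proteasome, had the highest role median in the TFR genotype comparison (0.11 over 8 genes, 5 higher and 3 lower). In non-TFR cells it was -0.03, with 3 higher and 5 lower. The higher ones in KO TFR cells were led by Derl1, a channel component, at 10.26 in KO TFR and 9.98 in WT TFR cells (0.28), beside 10.07 in KO non-TFR and 10.04 in WT non-TFR cells. Edem3, a mannose-trimming protein, was 8.77 in KO TFR and 8.50 in WT TFR cells (0.27), and these values stand against 8.48 in KO non-TFR and 8.54 in WT non-TFR cells. KO TFR cells were thus the high array for Edem3 and Derl1. Derl2 was 7.25 in KO TFR, 7.08 in WT TFR, 7.08 in KO non-TFR and 6.66 in WT non-TFR cells, with WT non-TFR cells the low array. Its second probe gave 0.11 in place of 0.42 for KO minus WT non-TFR cells. Syvn1 encodes the ubiquitin ligase HRD1, and Sel1l its partner. In TFR against non-TFR cells Syvn1 was higher by 0.19 in WT and 0.38 in KO mice, and Sel1l by 0.22 and 0.25. Edem1, Edem2 and Herpud1 were lower in TFR cells of both genotypes, by at most 0.25, although the second probe of Edem1, below the expression limit, gave -0.57 and -0.55.

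Targeting and translocation genes bring nascent chains to the ER and through its membrane. Over 11 measured members their genotype medians were 0.01 in TFR and 0.02 in non-TFR cells, and their TFR over non-TFR medians -0.09 in WT and -0.11 in KO mice. The subunits of the Sec61 channel did not share a direction. Sec61a1, the pore subunit, was 10.54 in KO TFR, 10.30 in WT TFR, 10.28 in KO non-TFR and 10.25 in WT non-TFR cells. The KO TFR array stood highest, and the other arrays lay close together. Sec61g was 10.67 in KO TFR, 10.80 in WT TFR, 10.89 in KO non-TFR and 10.93 in WT non-TFR cells, with the KO TFR array lowest. Sec61b was 0.21 lower in TFR cells of WT and 0.22 lower in those of KO mice, but its second probe gave 0.36 and 0.11 with the other sign.

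Sec62 and Sec63 encode proteins that work with the channel on chains imported after their synthesis. Sec63 was 9.18 in KO TFR, 9.19 in WT TFR, 9.31 in KO non-TFR and 9.63 in WT non-TFR cells, and WT non-TFR cells stood highest. Sec62 was 9.14 in KO TFR, 9.27 in WT TFR, 9.46 in KO non-TFR and 9.20 in WT non-TFR cells, and the KO non-TFR array stood highest. Of the translocon-associated proteins, Ssr2 was 12.41 in KO TFR and 12.40 in WT TFR cells, against 12.15 in KO non-TFR and 12.13 in WT non-TFR cells. Ssr2 thus differed between the populations (0.27 in WT, 0.26 in KO) and hardly between the genotypes (0.01 in TFR, 0.02 in non-TFR). Ssr3 was 0.31 higher in TFR cells of WT mice and -0.04 apart in KO mice, Ssr4 -0.08 and -0.23, and Ssr1 -0.09 and 0.07. The second, dim probe of Ssr1 gave 0.68 and 0.37. Srp9, of the signal recognition particle, and Srprb, of its receptor, were lowest in WT TFR cells, at 9.95 and 7.60, and lay at 10.12 to 10.26 and 7.79 to 7.90 on the other arrays.

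Signal peptidase genes, whose products remove the signal peptide, had the highest role median between the populations, 0.27 in WT and 0.33 in KO mice over 4 genes. Sec11c, a catalytic subunit, was 10.75 in KO TFR and 10.75 in WT TFR cells, against 10.33 in KO non-TFR and 10.26 in WT non-TFR cells. Spcs3 was 9.78 in KO TFR and 9.88 in WT TFR cells, against 9.50 in KO non-TFR and 9.43 in WT non-TFR cells. Both TFR arrays were above both non-TFR arrays for these genes, by 0.49 (Sec11c) and 0.45 (Spcs3) in WT and by 0.42 and 0.28 in KO mice. Spcs1 was 0.09 higher in WT and 0.38 higher in KO TFR cells, and Spcs2 0.10 and 0.18 lower. Between the genotypes no signal peptidase gene was more than 0.17 apart. Of the COPII coat genes, which form vesicles for export from the ER, Sec23b spanned 9.17 to 9.35 over the 4 arrays. Sec24d was 7.17 in KO TFR, 7.07 in WT TFR, 7.15 in KO non-TFR and 6.83 in WT non-TFR cells.

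**Figure D4:**
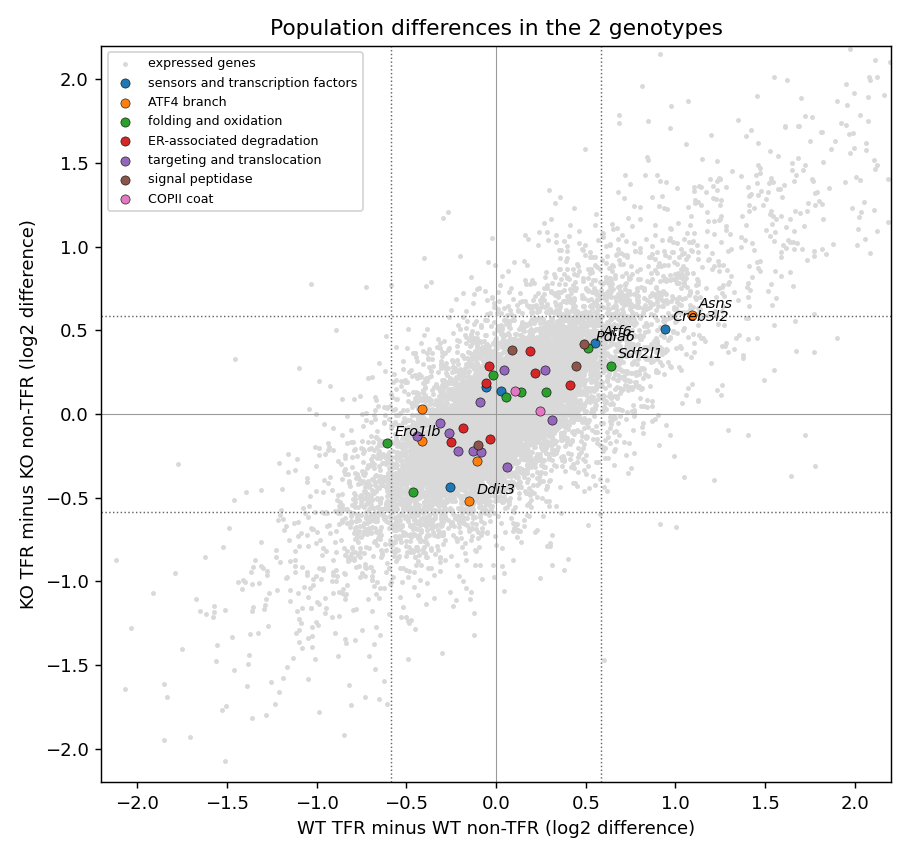
Each coloured point is 1 of the 43 measured genes, by role, with its TFR minus non-TFR log2 difference in WT (x axis) and in KO mice (y axis); grey points are expressed genes, of which 79 lie beyond the axes, and dotted lines mark 1.5-fold. Asns lies past both upper lines, Creb3l2 and Sdf2l1 past that of WT mice, and Ero1lb past the lower line of WT mice.

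The comparisons within each genotype share no array, and those within each population share none either. TFR and non-TFR differences had the same sign in both genotypes for 35 of the 43 genes (81.4%), beside 76.4% of expressed genes, with a Pearson r across the 43 of 0.75 and a Spearman rho of 0.76 (0.80 and 0.73 across expressed genes). At least 0.32 apart on the log2 scale in the same direction in both were 5 higher genes (Asns, Creb3l2, Atf6, Pdia6, Sec11c), or 11.6% against 14.1% of expressed genes, and 1 lower gene (Manf), or 2.33% against 10.1%. Genotype differences had the same sign in both populations for 32 of the 43 (74.4%), beside 59.5% of expressed genes, with r of 0.29 and rho of 0.26 (0.35 and 0.28 across expressed genes). At least 0.32 apart in the same direction in both populations were 0 of the 43, against 3.48% of expressed genes higher and 1.49% lower. These are descriptions across genes, which share arrays and are not independent replicates, and whether the populations of a genotype came from the same mice is unstated in the labels.

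The KO minus WT difference in TFR cells less that in non-TFR cells had a median of -0.003 over the 43 genes, beside -0.01 over expressed genes. It ran from -0.50 (Asns) to 0.44 (Trib3). None reached 1.5-fold, against 2.37% of expressed genes higher and 4.08% lower. Next to these stood Ero1lb (0.43), Creb3l2 (-0.43), Sec62 (-0.38) and Ddit3 (-0.37). No gene of the programme was at least 0.32 apart between the genotypes in opposite directions in the populations, beside 1.05% of expressed genes.

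The order of the arrays seen for division genes had WT non-TFR cells lowest, KO non-TFR cells next and both TFR arrays above. It did not mark the programme out from expressed genes. All 11 measured markers of dividing cells had that order, with median TFR over non-TFR differences of 3.30 in WT and 2.13 in KO mice and median KO minus WT differences of 0.05 in TFR and 1.12 in non-TFR cells. Of the 43 genes 12 had it (27.9%), a share near the 22.9% of expressed genes. They were Atf6, Creb3l2, Asns, Pdia6, P4hb, Canx, Sdf2l1, Sel1l, Sec61a1, Ssr2, Sec11c and Spcs3. Some of these rest on very small gaps. Sec61a1 was 10.30 in WT TFR and 10.28 in KO non-TFR cells, and Canx 11.57 and 11.55. Ssr2 was 12.15 in KO non-TFR and 12.13 in WT non-TFR cells. This order was chosen after the values were seen. The part of cell division in these differences was not tested.

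**Figure D5:**
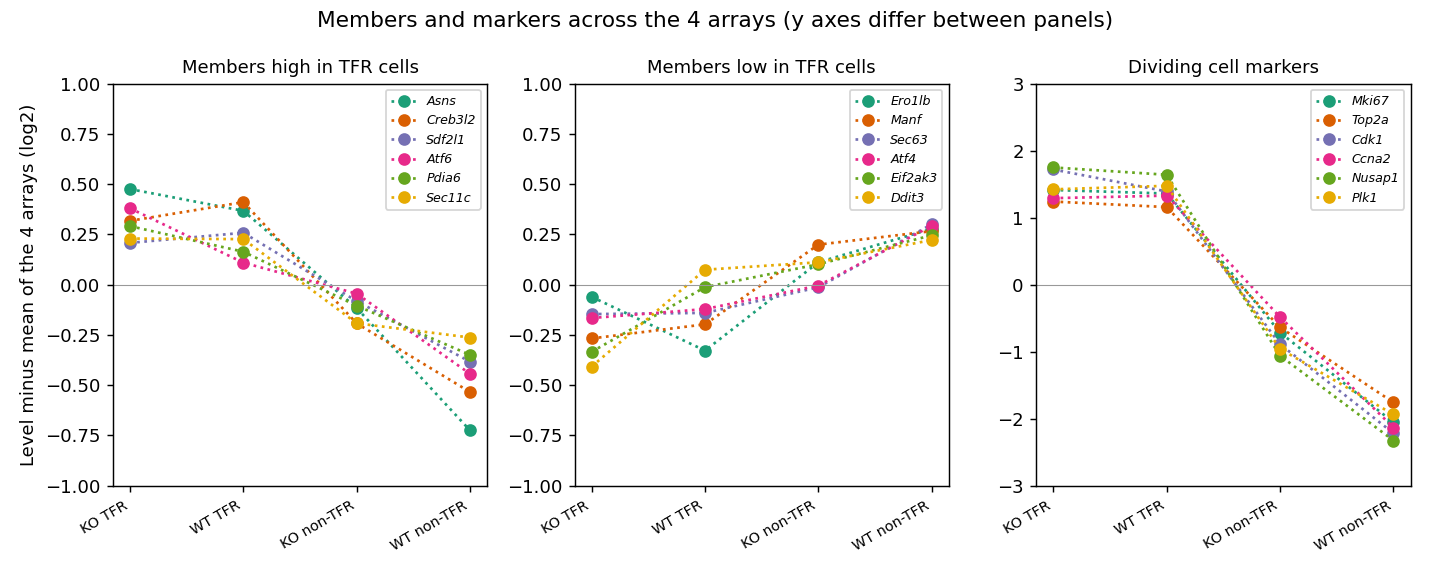
Level of single genes on each array less their own mean over the 4 arrays (log2, y axis; the scale differs in the panel on the right). On the left are 6 genes of the programme that were higher in TFR cells of both genotypes, and in the middle 6 that were lower. On the right are 6 division markers. All 6 genes on the left have their lowest value in WT non-TFR cells, as the markers do.

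Other genes of the pathway were pooled with plasma cell genes that go with Blimp-1, 83 measured of 86 listed in 6 lists. Together they showed the same lack of a common shift, and the plasma cell list is given by itself further below. Their median KO minus WT difference was 0.02 in TFR and 0.02 in non-TFR cells. The TFR over non-TFR median was 0.03 in WT and 0.03 in KO mice. Ddit4, an inhibitor of mTORC1 induced by stress, was at least 1.5-fold higher in KO TFR cells (8.02, against 7.31 in WT TFR cells), the only 1 of the 83 (against 2.16% of expressed genes), and none was 1.5-fold lower. It was also 0.42 higher in KO non-TFR cells.

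The other ER chaperones and folding enzymes had a median of -0.07 over 16 genes in the TFR genotype comparison. Hspa5, which encodes the main ER chaperone BiP, was 11.23 in KO TFR and 11.13 in WT TFR cells, against 11.54 in KO non-TFR and 11.53 in WT non-TFR cells. Dnajb9, a co-chaperone of BiP, was 11.27 in KO TFR, 11.54 in WT TFR, 11.82 in KO non-TFR and 12.16 in WT non-TFR cells. Both were lower in TFR cells of each genotype, as Manf was, but the 16 genes did not share this direction. Their TFR over non-TFR median was 0.04 in WT mice (9 higher, 7 lower) and 0.01 in KO mice (8 higher, 8 lower). Oligosaccharyltransferase genes had a genotype median of 0.02 in TFR cells over 10 genes, led by the catalytic subunit Stt3a (0.39) and by Ostc (-0.27). Among 16 genes of ER to Golgi transport (median 0.02), 8 were higher in KO TFR cells (50.0%, beside 53.8% of expressed genes) and 8 lower. The highest was Kdelr3 (0.43), whose mean level of 5.87 lay below the expression limit. The retrieval receptor gene Kdelr2 was 0.40 lower in KO TFR cells and Sec23a 0.28 lower. Lman1, the cargo receptor for glycoproteins, was higher in TFR cells by 0.86 in WT and 0.67 in KO mice.

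Further ATF4 and stress response genes had a median of 0.003 over 18 genes in the TFR genotype comparison. In non-TFR cells it was -0.006, with 7 of 18 higher in KO cells (38.9%, beside 55.7% of expressed genes) and 11 lower. The serine synthesis gene Psat1, an ATF4 target, had levels of 8.51 in KO TFR, 8.15 in WT TFR, 8.14 in KO non-TFR and 7.42 in WT non-TFR cells. The WT non-TFR array was lowest, as for Asns. Psat1 had the highest KO minus WT difference of the list in non-TFR cells (0.72), whereas Phgdh, Shmt2 and Mthfd2 differed there by 0.07, -0.02 and 0.04. Atf3 differed by -0.32 in TFR cells. Ppp1r15a, whose product GADD34 reverses the translational arrest, was 11.36 in KO TFR and 11.62 in WT TFR cells, against 12.07 in KO non-TFR and 12.39 in WT non-TFR cells, and so lay below in TFR cells of both genotypes. The other genes of degradation and of the sensors had the highest median in the TFR genotype comparison, 0.13 over 13 genes. Of these, 11 were higher (84.6%, beside 53.8% of expressed genes) and 2 lower, led by Traf2 (0.41), an adaptor of IRE1, and the ATF6 protease gene Mbtps2 (0.37). In non-TFR cells the median of the same 13 genes was 0.01, with 7 higher (53.8%, beside 55.7% of expressed genes) and 6 lower.

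The list of plasma cell genes that go with Blimp-1 had a median KO minus WT difference of -0.15 in TFR cells (3 of 10 higher, beside 53.8% of expressed genes) and of 0.14 in non-TFR cells (9 of 10 higher, beside 55.7%). By their mean over the 4 arrays 4 of these genes lay below the expression limit, and the 3 that were higher in KO TFR cells were among them. Of those 3, Sdc1 was above the limit on both TFR arrays, at 6.38 in KO and 6.07 in WT cells (1.24-fold higher in KO). Of the 6 whose mean lay above the limit, 0 were higher in KO TFR cells and 5 in KO non-TFR cells. The elongation factor gene Ell2, which Blimp-1-expressing plasma cells use in antibody production, was 9.89 in KO TFR, 10.18 in WT TFR, 10.50 in KO non-TFR and 10.40 in WT non-TFR cells. Irf4, a transcription factor of plasma cells and of effector regulatory T cells, was 9.14 in KO TFR and 9.32 in WT TFR cells, and was 0.41 higher in KO than in WT non-TFR cells (8.58). For both genes the KO array was the lower in TFR cells and the higher in non-TFR cells, by 0.29 and 0.10 for Ell2 and by 0.18 and 0.41 for Irf4. The surface receptor gene Slamf7 differed by -0.19 in TFR and 0.64 in non-TFR cells.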

How the data were processed

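The authors deposited 1 log2 value per probe (transcript cluster) and array, for 4 arrays in 4 groups taken from the titles. Values between 2.23 and 13.8 were read as log2 from their range. The submitters' processing notes list MAS5 with neither version nor role, and the summarization is not given in the sources used here. Deposited medians spanned 0.105, so all 41345 probes were quantile-normalized with limma 3.58.1 in R 4.3.3, and differences of arrays and medians were computed in Python 3.11.15. Of the probes 23521 had 1 gene in the platform annotation, 1814 had several and 16010 were not named there. For genes with several probes, 6 of the 43 measured here, the brightest by mean was used.

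With 1 array per group the difference between 2 arrays has no replicate error, and no test was made or p-value computed. An additive fit of genotype and population over the 4 arrays, which would take their interaction as its error, was not run. The steps were checked on simulated data. The genes and lists were chosen with earlier results of these data known. All 45 genes are accounted for, and other pathway and plasma cell genes were named by the size of their TFR genotype difference, up to 4 per list. Hspa5, Lman1, Ppp1r15a, Irf4 and Slamf7 lie outside that rule and were chosen after their values were seen. Alternatives were the deposited values, cyclic loess, centring on the 75th percentile, other limits for dim genes, averaging the probes of a gene, list means and, chosen after seeing the data, exact symbols only.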

Additional observations from a re-analysis of the deposited data

How the results depend on the processing

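Medians were called moved when they changed by 0.1 or more on the log2 scale, and counts when they changed by more than 1.5 times. As deposited, the list median was 0.11 in WT TFR against WT non-TFR cells and 0.21 in KO TFR against KO non-TFR cells. These values include the shift of all expressed genes between the populations. Less the median of expressed genes they were -0.02 and 0.07, beside -0.04 and 0.09 after quantile normalization. The number of genes at least 1.5-fold apart was 0 as deposited in KO against WT non-TFR cells, where Asns lay just below the limit at 0.57, and 2 in KO TFR against KO non-TFR cells, where it was 0 with centring on the 75th percentile. Over the 31 genes above the 75th percentile of level, a filter that leaves out Asns and Ero1lb, it was 0 and 0 in these comparisons and 2 in WT TFR against WT non-TFR cells. Under the other alternatives these medians and counts did not move. Of 172 differences of single genes, 55 were at least 0.25 and none of these changed sign under any alternative, whereas 25 of the 117 below 0.25 did. No paired analysis was possible because each group has 1 array and no replicate numbers. Genes near the expression limit (Trib3, Chac1) are limited by signal over background, for which the table gives no detection calls. The same limit holds for Asns in WT non-TFR cells (6.17), the array on which its differences of 1.09 and 0.61 rest.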
